A study of Homo sapiens with 3 samples.

Results

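Prostanoids are short-range lipid signals. Phospholipases release arachidonic acid from membranes, the cyclooxygenases turn it into prostaglandin H2, terminal synthases convert this to prostaglandins E2, D2, F2α and I2 or to thromboxane, and HPGD breaks prostaglandins down. The products act on G protein-coupled receptors at the cell surface. The FP receptor, encoded by PTGFR, raises calcium through Gq, the EP2 and EP4 receptors raise cAMP through Gs, and the EP3 receptor lowers it through Gi. Prostaglandins are abundant in prostate tissue and seminal fluid.

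The genes described here are 10 members of this pathway, namely the receptor genes PTGFR, PTGER1, PTGER2, PTGER3 and PTGER4, the cyclooxygenase genes PTGS1 and PTGS2, the synthase gene PTGES, the dehydrogenase gene HPGD and the secreted phospholipase gene PLA2G2A. The set was chosen on measured values, because PTGFR was lower and PLA2G2A higher in both drug-resistant arrays. The values of these 2 genes are therefore descriptions and are used as support for nothing. All probe sets with a single-gene annotation to a member symbol were taken. That gave 31 probe sets for the 10 genes, out of 41091 probe sets for 19775 genes, and 0 further probe sets named a member jointly with another gene.

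RNA of 3 human prostate cancer lines was hybridized to Affymetrix HG-U133 Plus 2.0 arrays, 1 for each line. The parental line, C4-2B, is a long-established castration-resistant derivative of LNCaP, here grown in RPMI 1640 with serum and passaged alongside the resistant cells. C4-2B MDVR cells were kept in medium with 20 µM enzalutamide, which blocks androgen binding to its receptor, and C4-2B AbiR cells in medium with 10 µM abiraterone acetate, which inhibits the androgen-synthesizing enzyme CYP17A1. With 1 array per line there was no replicate and no test, and the drug, the history of each subline and the array cannot be told apart.

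The values are log2 RMA values that had been centred for each probe set, so that 0 is the centre of a probe set and not an absence of signal. Levels cannot be compared between genes, the labelled tissue cannot be checked by the level of its markers, and a silent gene cannot be told from a steadily expressed one. A log2 difference of 1 is a 2-fold difference, and a gene is called here when the mean of its probe sets differs at least 2-fold. A value after ± is the SD over a gene's probe sets on the same arrays, a technical spread. As a scale for array noise, 42 spiked bacterial control probe sets differed from the parental array with an SD of 0.13 in MDVR and 0.10 in AbiR cells, and with an SD of 0.12 between the resistant lines. Their largest absolute differences were 0.35, 0.20 and 0.34. The means of 23.0%, 33.0% and 19.4% of all genes lay past these, so that passing them is common. Markers of fibroblasts and leukocytes, 9 genes measured of 10 listed, had 0 genes called in either comparison with parental. Their differences ranged from −0.094 to 0.50 in MDVR and from −0.17 to 0.44 in AbiR. Of all genes, 1.65% were called higher and 1.67% lower in MDVR, and 1.07% and 0.804% in AbiR. The probe sets of COL1A1 disagreed. Its means were 0.42 ± 0.67 in MDVR and 0.44 ± 0.64 in AbiR, and the highest of its 5 probe sets was at 1.20 and 1.15. Of 8 measured markers of luminal prostate epithelium, 3 were called lower in both lines, KLK3 (−4.07 and −3.17), KLK2 (−1.29 and −2.12) and SLC45A3 (−2.91 and −3.15), and the other 5 lay between −0.45 and 0.85. Whether these markers and the prostanoid genes moved together was not tested.

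The sequences just before the starts of the 2 genes that chose the set are shown for orientation, since these genes had the largest differences of the 10. They are the 250 bases before a transcription start, from RefSeq on GRCh38.p14, and capitals mark CG dinucleotides, the sites at which DNA can be methylated. PTGFR lies on the + strand and the window is chr1:78490724-78490973. PLA2G2A lies on the − strand with 3 annotated starts, and the window of the middle one, chr1:19979660-19979909, is shown.

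PTGFR: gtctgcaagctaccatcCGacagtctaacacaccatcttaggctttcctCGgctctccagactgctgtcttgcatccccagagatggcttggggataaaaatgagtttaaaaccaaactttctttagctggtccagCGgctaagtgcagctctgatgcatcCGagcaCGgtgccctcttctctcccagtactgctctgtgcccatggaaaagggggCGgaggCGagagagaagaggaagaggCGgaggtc
PLA2G2A: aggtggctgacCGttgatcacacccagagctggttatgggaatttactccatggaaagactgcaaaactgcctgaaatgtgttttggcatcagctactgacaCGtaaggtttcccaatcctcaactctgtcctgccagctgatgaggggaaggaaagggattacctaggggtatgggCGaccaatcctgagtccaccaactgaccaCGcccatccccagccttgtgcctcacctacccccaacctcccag

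The PTGFR window held 8 CG dinucleotides and the PLA2G2A window 4, beside a median of 11 over 35116 windows of the table. Windows were found for 9 of the 10 genes, 13 windows in all, and PTGER3 had none in the table. CG counts ran from 2 in another window of PLA2G2A to 29 in a window of HPGD, with 28 for PTGER2 and 26 for PTGER4. Both strands were searched for 5 motifs. The background is a share of windows, whereas members are counted by gene. A gene with several windows counts if any of them has a match, so that the units are unlike. The GC box GGGCGG was found in 42.6% of all windows and in windows of 7 of the 9 genes, among them PTGFR, where it lay 37 to 32 bases before the start. The 2 genes without it were PTGS2 and PLA2G2A. The TATA box TATAAA was present in 10.7% of all windows and in those of 2 members, PTGS2 at 32 to 27 bases before the start and PTGS1 on the other strand. The androgen receptor half-site AGAACA, found in 12.4% of all windows, was found for 1 member, PLA2G2A, at 9 to 4 bases before the start nearest the 3′ end. Neither the AP-1 site TGACTCA (4.20% of all windows) nor the cAMP response element TGACGTCA (1.65%) was in the window of a member. Methylation and factor binding were not measured in these cells.

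PTGFR, the prostaglandin F receptor gene, had 2 probe sets, and both were high in parental cells and near their centre in both resistant lines. Probe set 1555097_a_at had a centred value of 5.49 in parental, 0.11 in MDVR and −0.14 in AbiR cells. Probe set 207177_at had 4.69, −0.034 and −0.23. The resistant arrays lay within 0.24 of each other on each probe set, whereas the parental array stood apart. The gene was 33.2-fold lower in MDVR (log2 difference −5.05 ± 0.46) and 38.7-fold lower in AbiR (−5.27 ± 0.50). Of 19775 genes, 0 had a lower difference in MDVR and 2 in AbiR.

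PLA2G2A, which encodes the secreted group IIA phospholipase that releases fatty acids such as arachidonic acid, had the opposite pattern. Its only probe set, 203649_s_at, had a centred value of −3.98 in parental, −0.50 in MDVR and 0.50 in AbiR cells. The log2 difference was 3.48 in MDVR, an 11.1-fold higher value, and 4.48 in AbiR, a 22.3-fold higher value. In MDVR 14 genes had a higher difference, and in AbiR 3 did. The suffix _s marks probes shared by several transcripts, and no second probe set was at hand to check this one.

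**Figure D1:**
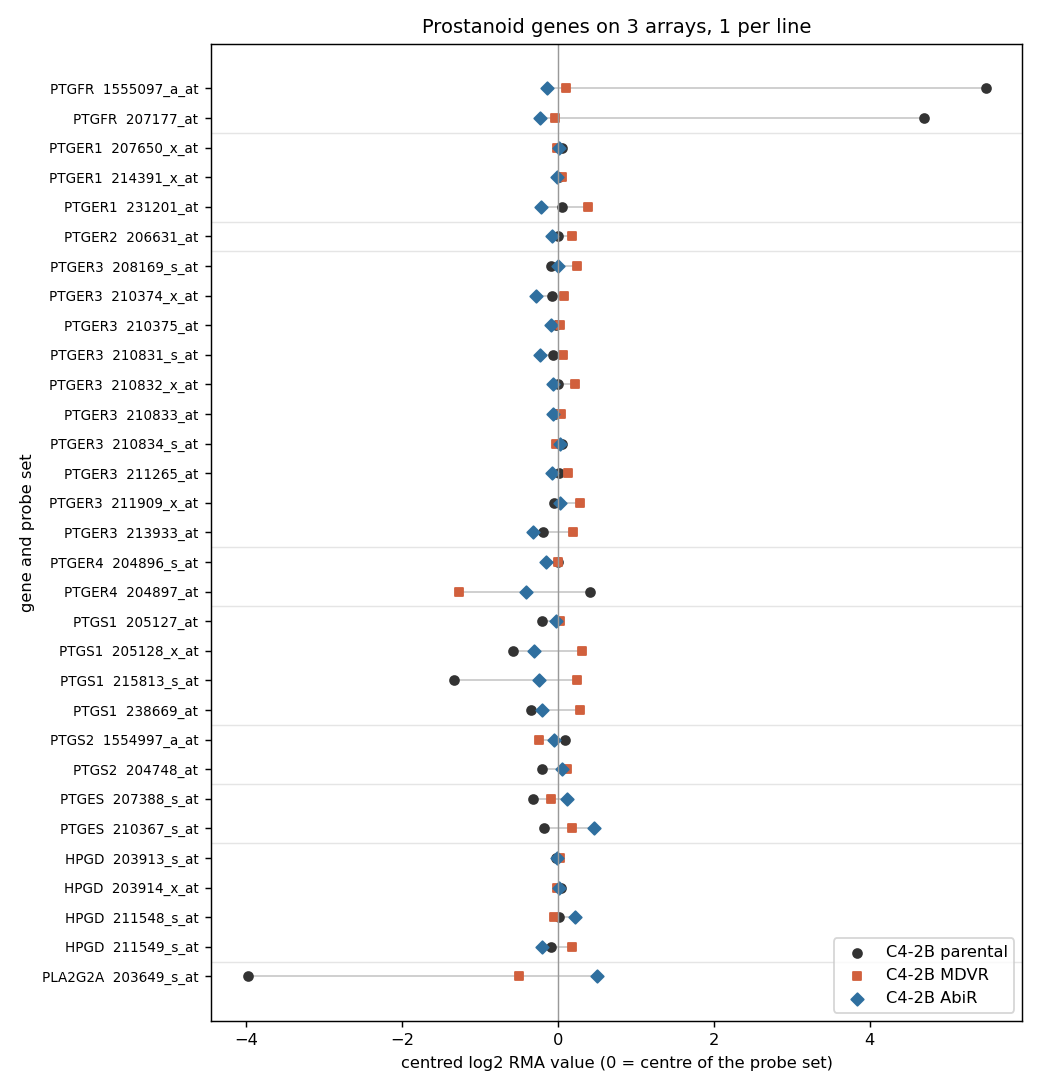
Centred log2 values (x axis) of the 31 probe sets of the 10 genes (y axis) on the arrays of C4-2B parental (black circles), MDVR (orange squares) and AbiR cells (blue diamonds), with a grey line over the range of each probe set. The parental values of PTGFR lie at 5.49 and 4.69 and that of PLA2G2A at −3.98, while most other probe sets lie close to 0 on all 3 arrays.

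The 4 receptor genes for prostaglandin E2 differed less. Of their gene means, only that of PTGER4, the gene of the cAMP-raising EP4 receptor, lay past the largest spiked control difference. Over all genes, 23.0% were past it in MDVR and 33.0% in AbiR. PTGER4 was at −0.84 ± 1.20 in MDVR and −0.49 ± 0.48 in AbiR. Its 2 probe sets disagreed. Probe set 204897_at had a centred value of 0.42 on the parental array, −1.28 on MDVR and −0.42 on AbiR, so that it was lower in both resistant lines, at −1.69 and −0.83. Probe set 204896_s_at had −0.0031, 0.0031 and −0.16, and differed from parental by 0.0063 in MDVR and −0.15 in AbiR. The lower PTGER4 value in MDVR thus rests on 1 of its 2 probe sets.

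PTGER3, the gene of the cAMP-lowering EP3 receptor, is read by 10 probe sets, more than any other member. Their centred values ranged from −0.20 to 0.053 in parental cells, from −0.032 to 0.28 in MDVR cells and from −0.32 to 0.032 in AbiR cells, so that the 3 ranges overlapped. The mean difference was 0.17 ± 0.15 in MDVR, with 9 of 10 probe sets above 0, and −0.060 ± 0.095 in AbiR, with 8 of 10 below 0. The largest difference of a single probe set from parental in either line was 0.39, at 213933_at in MDVR, past the 0.35 of the spiked controls there.

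PTGER1, the gene of the calcium-linked EP1 receptor, differed by 0.099 ± 0.21 in MDVR and −0.11 ± 0.14 in AbiR over 3 probe sets. PTGER2, the gene of the other cAMP-raising receptor, had 1 probe set with a centred value of 0.0032 on the parental array, 0.18 on MDVR and −0.078 on AbiR. Its differences of 0.18 and −0.081 lay within the largest differences of the spiked controls. Over all genes the median difference was 0.044 in MDVR and −0.011 in AbiR.

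Of the cyclooxygenases, PTGS1, the constitutive form, had the larger differences. All 4 of its probe sets were lowest on the parental array. Probe set 215813_s_at had a centred value of −1.34 in parental, 0.25 in MDVR and −0.25 in AbiR cells, and 205128_x_at had −0.57, 0.30 and −0.30. Probe set 238669_at had −0.35, 0.29 and −0.20, and 205127_at had −0.20, 0.022 and −0.022. MDVR was the highest of the 3 arrays on each of them. The gene mean was 0.83 ± 0.57 higher in MDVR and 0.42 ± 0.45 higher in AbiR on the log2 scale, or 1.78-fold and 1.34-fold, both below 2-fold and above the largest difference of the spiked controls. A larger absolute difference was found for 4.81% of all genes in MDVR and 10.7% in AbiR. At least 2-fold differences were present on 1 probe set, 215813_s_at, at 1.59 and 1.09.

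PTGS2, the inducible cyclooxygenase gene, gave no single direction. Probe set 204748_at had a centred value of −0.21 in parental, 0.11 in MDVR and 0.052 in AbiR cells, whereas 1554997_a_at had 0.085, −0.24 and −0.050. The mean differences were −0.0014 ± 0.46 and 0.064 ± 0.28, and the order of the arrays on 1 probe set was the reverse of that on the other.

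PTGES, the microsomal synthase gene that makes prostaglandin E2 from the product of the cyclooxygenases, was higher on both probe sets in both lines. Probe set 210367_s_at had a centred value of −0.18 in parental, 0.18 in MDVR and 0.46 in AbiR cells, and 207388_s_at had −0.32, −0.095 and 0.12. The parental array was lowest and the AbiR array highest on each. The difference was 0.29 ± 0.098 in MDVR, within the largest spiked control difference of 0.35, and 0.54 ± 0.15 in AbiR, above the 0.20 seen there. A larger absolute difference was found for 6.79% of all genes in AbiR. HPGD, the 15-hydroxyprostaglandin dehydrogenase gene, had centred values between −0.21 and 0.22 on all arrays. Its 4 probe sets averaged 0.051 ± 0.15 and 0.015 ± 0.14, with 2 above 0 and 2 below 0 in each line.

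**Figure D2:**
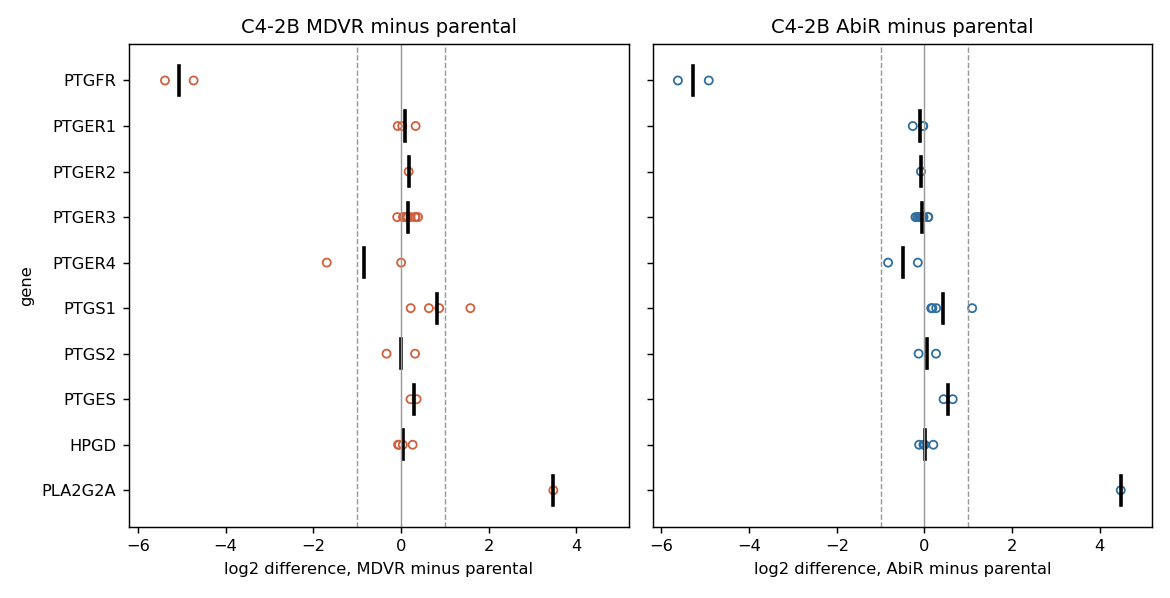
The 10 genes (y axis) with their log2 difference to parental cells (x axis), for C4-2B MDVR in the left panel and C4-2B AbiR in the right one, where open circles are probe sets, black bars are gene means and dashed lines mark 2-fold. PTGFR lies at −5.05 and −5.27, PLA2G2A at 3.48 and 4.48, and the probe sets of PTGS1 lie above 0 in both panels.

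By gene, 1 of the 10 members was called higher in MDVR, PLA2G2A, where 1.65% of all genes were, and 1 was called lower, PTGFR, where 1.67% were. In AbiR the same 2 genes were called, 1 higher beside 1.07% of all genes and 1 lower beside 0.804%. Both genes are those that chose the set, and nothing is read from these counts. By probe set, 5 of 31 differed at least 2-fold in MDVR, beside 4.37% of all single-gene probe sets, and 4 of 31 in AbiR, beside 2.47%. Leaving aside the 3 probe sets of PTGFR and PLA2G2A, those were 204897_at of PTGER4 in MDVR and 215813_s_at of PTGS1 in both lines. The median difference of the 10 genes was 0.13 in MDVR and −0.023 in AbiR. The 2 comparisons share the parental array, so that a parental value that stands apart moves both.

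Between the resistant lines, 0 of the 10 genes were called, where 0.875% of all genes were higher in MDVR and 1.13% lower. PLA2G2A came closest, at 1.998-fold lower in MDVR than in AbiR, and passed the 2-fold mark when arrays were centred on their median or on the spiked controls. PTGFR differed by 0.22 ± 0.036. The log2 difference, MDVR minus AbiR, was 0.41 ± 0.25 for PTGS1 and −0.25 ± 0.049 for PTGES, with all 4 and both probe sets on the same side. PTGER4 had a difference of −0.35 ± 0.72, with its probe sets on opposite sides.

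The wider pathway was read from 7 gene lists with 90 measured genes. In MDVR, 3 of them were called higher, beside 1.65% of all genes, and 4 lower, beside 1.67%. The median was 0.072 beside 0.044 over all genes. In AbiR, 1 was called higher, beside 1.07% of all genes, and 3 lower, beside 0.804%, with a median of 0.0017 beside −0.011. The lists were chosen with earlier results known, so that nothing is read from these counts or from those of each list. Other phospholipases, with the receptor PLA2R1, had 0 of 17 genes called in MDVR and 1 in AbiR, PLA2G7, a hydrolase of platelet-activating factor, at −1.04. PLA2G4A, the cytosolic phospholipase that prefers arachidonic acid, had a difference of −0.54 in MDVR and −0.61 in AbiR by its single probe set, opposite in sign to PLA2G2A. PLA2R1, which binds secreted phospholipases, was at 0.13 ± 0.21 and −0.11 ± 0.18.

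Among 9 terminal synthases, AKR1C3 was called higher in MDVR and 0 in AbiR. AKR1C3 is an aldo-keto reductase that makes prostaglandin F2α, the ligand of the FP receptor, besides reducing steroids. Its probe set 209160_at had a centred value of −0.50 in parental, 3.52 in MDVR and −0.49 in AbiR cells, and the MDVR array alone was high. PRXL2B, a further prostaglandin F synthase gene, was at 0.52 and 0.57. The other routes to prostaglandin E2, PTGES2 and PTGES3, differed by 0.025 and −0.11 in MDVR, and by −0.085 and −0.31 in AbiR cells.

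Of 6 genes for transport and breakdown, 1 was called, ABCC4, and it was lower in both lines. ABCC4 encodes the exporter MRP4, which carries prostaglandins and cyclic nucleotides out of cells. Probe set 203196_at had a centred value of 2.72 in parental, −0.022 in MDVR and 0.022 in AbiR cells, and 1554918_a_at and 1555039_a_at also had parental values above 2, at 2.58 and 2.35. The remaining one, 243928_s_at, had 0.43, −0.012 and 0.012. The parental array was highest on all 4, and the gene differed by −1.89 ± 1.02 in MDVR and −2.15 ± 1.15 in AbiR. The uptake carrier gene SLCO2A1 had differences of 0.087 and −0.11.

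The other prostanoid receptor genes differed little. PTGDR, PTGDR2, PTGIR and TBXA2R, for prostaglandins D2 and I2 and thromboxane, lay between 0.10 and 0.18 in MDVR and between −0.10 and −0.070 in AbiR. With PTGER1 to PTGER4, 7 of the 8 receptor genes apart from PTGFR were above 0 in MDVR, as were 57.4% of all genes, and 8 of 8 were below 0 in AbiR, where 47.4% of all genes were above 0. The means of all but PTGER4 lay within the largest spiked control difference, and both counts share the parental array. The counts were the same when arrays were centred on their median or on the spiked controls. The share of all genes above 0 was then 52.6% and 50.6% in MDVR, and 49.4% and 42.3% in AbiR. PTGFRN, whose product binds the FP receptor and lowers its ligand binding, was at 0.36 ± 0.035 and 0.12 ± 0.17. PPARG, a nuclear receptor activated by a prostaglandin D2 derivative, was called higher in MDVR at 1.92 by its single probe set, and was at −0.37 in AbiR.

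Downstream of the receptors, 24 genes of G proteins and their effectors were measured. In MDVR 0 were called higher and 2 lower, PRKACB and PLCB4. PRKACB, a catalytic subunit of the cAMP-dependent kinase, had centred values of −3.42, −3.93 and −4.05 on its 3 probe sets in MDVR cells, while all parental and AbiR values lay between −0.19 and 0.19. Its difference was −3.72 ± 0.33 in MDVR and 0.17 ± 0.21 in AbiR. PLCB4, a phospholipase C that Gq activates, was lower on both probe sets in both lines, at −1.04 ± 0.17 in MDVR and −0.81 ± 0.057 in AbiR. PLCB1, below 2-fold by its mean, was at −0.75 ± 1.21 and −0.76 ± 1.03, and its probe sets disagreed. Its probe set 213222_at was at −2.15 and −1.94, and the others lay between −0.31 and −0.034. PLCB2 and PLCB3 lay between −0.020 and 0.15. In AbiR GNAI1, a Gi subunit of the kind that EP3 uses, was called higher at 1.43 ± 0.12, and it was at −0.63 ± 0.22 in MDVR. The Gq gene GNAQ was at −0.43 ± 0.49 in MDVR and −0.43 ± 0.51 in AbiR. Its probe sets disagreed, ranging from −1.12 to 0.16 in MDVR and from −1.20 to 0.025 in AbiR. GNA11, another G protein gene, was lower on all 6 probe sets in MDVR, at −0.74 ± 0.17, and was at 0.095 ± 0.14 in AbiR.

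Of 15 measured genes known to be induced through cAMP or calcium, 1 was called higher and 1 lower in MDVR, and 0 higher and 1 lower in AbiR. RGS2, a regulator that shortens Gq signals, was the lower one in both lines. Its probe set had a centred value of 1.83 in parental, 0.24 in MDVR and −0.34 in AbiR cells, with differences of −1.60 and −2.17. The chemokine gene CXCL8 was called higher in MDVR at 1.19 ± 0.66. Of the immediate early genes in the list, EGR1 was at 0.26 ± 0.40 in MDVR and 0.33 ± 0.41 in AbiR, and NR4A1, NR4A2, NR4A3, FOS, FOSB and DUSP1 lay between −0.12 and 0.065 in MDVR and between −0.024 and 0.15 in AbiR.

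**Figure D3:**
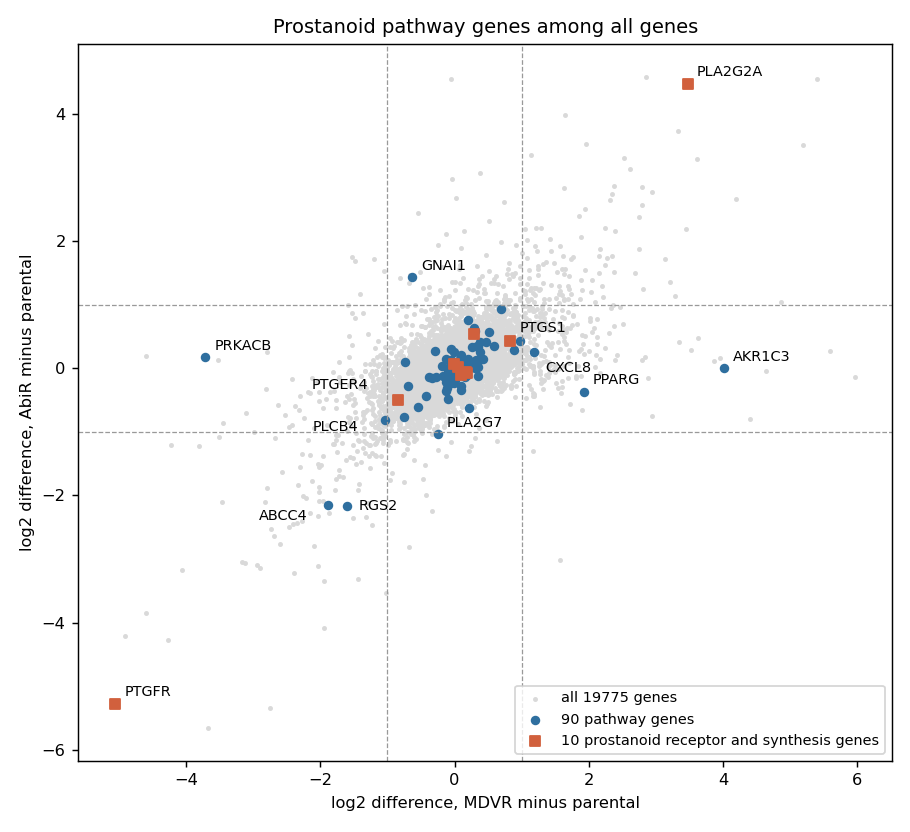
Genes as points, with the log2 difference between MDVR and parental cells on the x axis and that between AbiR and parental cells on the y axis, the 10 prostanoid receptor and synthesis genes as orange squares, 90 pathway genes in blue and all 19775 genes in grey. Dashed lines mark 2-fold, and PTGFR (−5.05, −5.27) lies with ABCC4 (−1.89, −2.15) and RGS2 (−1.60, −2.17) at the lower left, opposite PLA2G2A.

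The genes whose pair of differences was nearest to that of PTGFR, by straight-line distance over the 2 comparisons, were ELOVL7, a fatty acid elongase gene (distance 1.07), and ACADL, an acyl-CoA dehydrogenase gene (1.26). ZNF385B (1.43), ST6GALNAC1 (1.49) and PRUNE2 (2.31) came next. By these means of probe sets the gene nearest to PTGFR lay over 1 log2 unit away. The probe sets of PTGFR were themselves spread. Against parental, 1555097_a_at gave −5.38 (MDVR) and −5.62 (AbiR), whereas 207177_at gave −4.73 (MDVR) and −4.92 (AbiR). PTGFR was also chosen for its large differences. Whether it lacked a close match can therefore not be read from this distance. For PLA2G2A the nearest were IGFBP3, whose product binds IGFs (0.64), ATP1B1, a sodium pump subunit gene (0.76), TUBA1A (1.19), SERPINI1 (1.52) and WNT5A (1.60). These distances rest on 2 values for each gene and share the parental array.

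Both genes lie on chromosome 1, and 0 of their measured neighbours were called. Of all genes, 1.65% were called higher and 1.67% lower in MDVR, and 1.07% and 0.804% in AbiR. With so few neighbours, nothing is read from this count. Of the 3 measured genes on either side of PTGFR, DNAJB4, a co-chaperone gene, had the largest differences, at −0.71 in MDVR and −0.69 in AbiR. The others, GIPC2, MGC27382, ADGRL4 and the interferon-induced genes IFI44L and IFI44, lay between −0.36 and 0.30 in both lines. PLA2G2A stands in a cluster of secreted phospholipase genes. On one side RNF186 was at 0.069 in MDVR and −0.043 in AbiR, OTUD3 at 0.33 and 0.11 and PLA2G2E at 0.26 and 0.030, and on the other side PLA2G5 was at −0.13 and −0.21, PLA2G2D at −0.38 and −0.14 and PLA2G2F at −0.0095 and −0.23. The 4 neighbours that encode phospholipases were all below 2-fold.

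**Figure D4:**
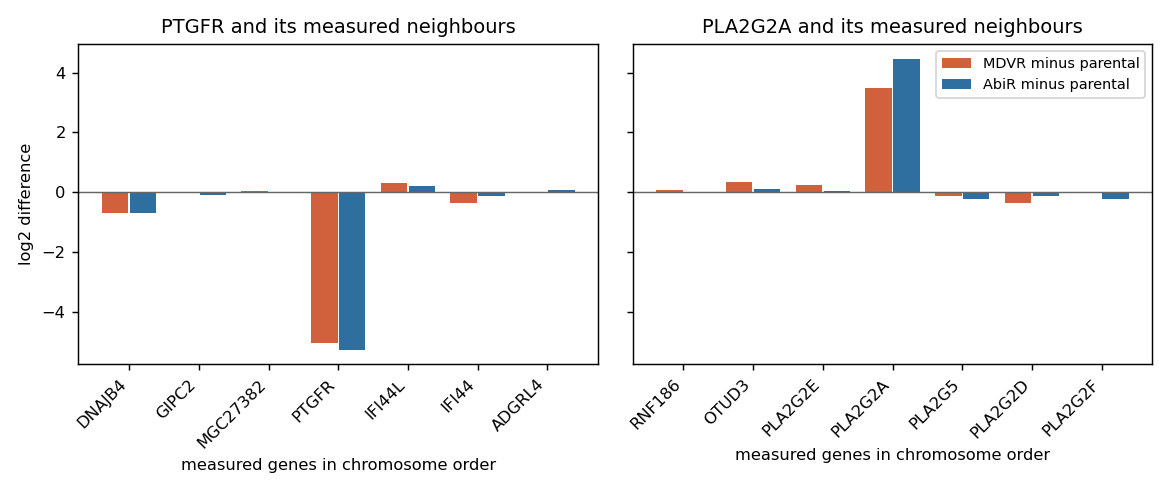
Log2 difference to parental cells (y axis) of PTGFR (left) and PLA2G2A (right) and of the 3 measured genes on each side in chromosome order (x axis), in C4-2B MDVR (orange bars) and C4-2B AbiR (blue bars). PTGFR lies at −5.05 and −5.27 and PLA2G2A at 3.48 and 4.48, while the largest bar of a neighbour is −0.71, for DNAJB4.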

How the data were processed

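Total RNA of 3 cell lines was hybridized to 1 array each. The authors deposited log2 values for 54675 probe sets, made by RMA per the labels (version not given in the sources used here) and centred for each probe set. In 100% of probe sets (tolerance 2e-06) the 3 values could have arisen by subtracting the median of 4 arrays, against 50.3% after shuffling each column, so that 1 further array, not analysed here, appears to have entered the centring. Depth does not apply to arrays, whose number limits the precision.

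Gene symbols came from the annotation of the array and were updated through gene IDs to RefSeq (99.9% found). Those with 1 gene were used, a gene was the mean of its probe sets, and no floor was applied. Log2 differences were taken between arrays with pandas 2.3.3, and a gene was called at 2-fold. The calling step was tested on simulated data. The members and gene lists were chosen with earlier results of these data known. The text names all members, the list genes called in MDVR or AbiR, partners of members on a fixed list, the 5 genes nearest in pattern to PTGFR and PLA2G2A and the 3 measured neighbours on each side, besides some other list genes chosen after their values were seen. Arrays centred on their median or on spiked controls, other summaries of probe sets, probe set classes and folds of 1.5 and 3 were tried. No probe set of 1 gene matched 9 listed symbols, among them AKR1B1, AREG and PLA2G16 (an older name of PLAAT3, which was measured), and they were not analysed here.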

Additional observations from a re-analysis of the deposited data

Results flagged for a closer look

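Among the members, their fixed partners and the pathway genes called, 14 were found in which the MDVR and AbiR arrays differed from parental in opposite directions. The share of all genes with opposite directions was not computed, so that nothing is read from this count. With 1 array per line the difference between the lines was not tested. It exceeded the largest spiked control difference of 0.34 for 3 of the 14, and for 19.4% of all genes. The log2 difference, MDVR minus AbiR, was −3.89 for PRKACB, −2.07 for GNAI1 and 2.29 for PPARG. The other 11 were smaller. MDVR minus AbiR was 0.21 for PTGER1, 0.26 for PTGER2, 0.23 for PTGER3, −0.065 for PTGS2, 0.24 for PLA2R1, 0.11 for PTGES2 and 0.19 for SLCO2A1. It was 0.18 for PTGDR, 0.21 for PTGDR2, 0.20 for PTGIR and 0.28 for TBXA2R. The median over all genes was 0.054.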

How the results depend on the processing

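The differences of PTGFR and PLA2G2A from parental kept their side of 2-fold under every alternative that gave a value, PTGFR between −5.38 and −4.73 in MDVR and between −5.62 and −4.92 in AbiR. Without probe sets of suffix s, x or a, PLA2G2A, PTGES and HPGD had no value, so that 1 member was called in AbiR, and in MDVR PTGER4 was called beside PTGFR. Reading each gene by the probe set with the largest range called 4 members in MDVR, adding PTGER4 (−1.69) and PTGS1 (1.59), as did a 1.5-fold mark. In AbiR the reading by largest range called 3 members, adding PTGS1 (1.09). Between the resistant lines 1 member, PLA2G2A, was called with arrays centred on their median or on the spiked controls, or at 1.5-fold. The 7, 4 and 4 pathway genes called in MDVR, AbiR and MDVR minus AbiR became 12, 7 and 7 by the probe set with the largest range and 15, 12 and 9 at 1.5-fold. At 3-fold, 2 were called in AbiR. Without probe sets of suffix s, x or a, PPARG and CXCL8 had no value, whereas PLA2G12A and PLCB1 were called in MDVR. The share of all genes called was not computed for the largest range, for the other folds or without these suffixes. The changed counts under those settings are therefore not read as a result about the members or the lists. Of 141 recomputed member values, 14 moved by more than the spread between probe sets (spiked controls where a gene had 1) and 6 changed sign, all of PTGS2 or HPGD and all below 2-fold. Of the 5 genes nearest to PTGFR and to PLA2G2A, 2 and 3 were shared when the probe set with the largest range was used. KLK3 was among the 5 nearest to PTGFR by that reading and by the median of a gene's probe sets. No paired analysis was possible because each group has 1 array.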

Other observations

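The lipoxygenase branch, which turns arachidonic acid into leukotrienes and related lipids, had 0 of 13 measured genes called in either line. Of all genes, 1.65% were called higher and 1.67% lower in MDVR, and 1.07% and 0.804% in AbiR. LTA4H, the enzyme gene for leukotriene B4, was at 0.97 in MDVR and 0.43 in AbiR by its single probe set, and ALOX12B at 0.70 and 0.93. ALOX5, the gene of the enzyme that starts leukotriene synthesis, was at 0.35 ± 0.38 and 0.021 ± 0.083, and its partner ALOX5AP at −0.33 and −0.15.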
